A study of Mus musculus with 18 samples.

Results

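The genes described here are 10 genes of the p53, p63 and DNA damage checkpoint pathway: Trp53, Trp63, Chek1, Chek2, Atm, Cdkn1a, Sesn2, Trp53inp1, Tnfrsf10b and Phlda3. They were chosen by name, as the non-control probes whose gene name in the scanner files is one of these, which gave 21 of 41174 probes and 10 of 19298 genes tested. Their levels were measured on 18 single-colour microarrays of whole mouse ovaries (XX gonads), 3 arrays for each of 6 groups. They pair Elavl2 knockout (KO) with wild type (WT) ovaries of fetuses at E15.5 and at E17.5, which count days of gestation, and of newborn mice (P0). Elavl2 belongs to the ELAV family, whose proteins bind RNA. The labels do not give the strain, the knockout allele or the age of the mothers, and they call every sample type mixed without saying what that means. Nothing in them says that replicates came from separate animals, so the spread behind the p-values may be technical.

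In mice, ATM is a kinase that responds to DNA double-strand breaks, and the kinases CHK2 and CHK1 pass the signal on, CHK2 chiefly from ATM and CHK1 chiefly from ATR. p53 (Trp53) is a transcription factor that these kinases stabilise and activate, and p63 (Trp63) is its relative. Oocytes in late meiotic prophase and in primordial follicles hold a form of p63 called TAp63alpha, which is kept inactive until damage leads CHK2 and CHK1 to start its activation, after which the oocyte dies. Cdkn1a (p21, a cell cycle inhibitor), Sesn2 (a sestrin, which restrains mTORC1), Trp53inp1 (a p53 cofactor linked to autophagy and cell death), Tnfrsf10b (the death receptor for TRAIL) and Phlda3 (an inhibitor of AKT) are known targets of p53. Meiotic recombination makes double-strand breaks in every oocyte before birth, so ATM and the checkpoint kinases also work in undamaged fetal ovaries.

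Of the 10 genes, 7 had a promoter in the RefSeq table (build GRCm38.p6), with 8 promoters in all because Cdkn1a had a pair of starts. Each window runs from 250 bases before to 50 bases after the start. The hexamer ACATGT, which reads the same on both strands and forms the core of many p53 sites, was searched with no mismatch and was present in 5.28% of all 32851 promoters of this length. The full p53 response element, a pair of 10-base half-sites (whose pattern, though not each match, is the same on both strands) up to 13 bases apart with at most 1 mismatch, was present in 0.627% of them. It overlaps the hexamer where a half-site holds one. Among the members, 2 promoters held the hexamer and 1 held the element. Those 2, the upstream Cdkn1a promoter and the Phlda3 promoter, are shown with the Sesn2 promoter, since Cdkn1a had the largest fall around birth among the target genes and Sesn2 and Phlda3 were the genes called higher in KO at E17.5. Capitals mark the hexamer and, in Cdkn1a, the half-sites of the element as well; the Sesn2 window holds neither, which says only that these letters are not in it.
Cdkn1a, chr17:29090729-29091028, plus strand: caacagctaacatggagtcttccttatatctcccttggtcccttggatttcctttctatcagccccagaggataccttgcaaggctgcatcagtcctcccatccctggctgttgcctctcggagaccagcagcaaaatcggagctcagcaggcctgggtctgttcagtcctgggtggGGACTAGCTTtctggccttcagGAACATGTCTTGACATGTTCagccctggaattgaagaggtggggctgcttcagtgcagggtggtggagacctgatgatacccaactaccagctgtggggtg
Phlda3, chr1:135765835-135766134, plus strand: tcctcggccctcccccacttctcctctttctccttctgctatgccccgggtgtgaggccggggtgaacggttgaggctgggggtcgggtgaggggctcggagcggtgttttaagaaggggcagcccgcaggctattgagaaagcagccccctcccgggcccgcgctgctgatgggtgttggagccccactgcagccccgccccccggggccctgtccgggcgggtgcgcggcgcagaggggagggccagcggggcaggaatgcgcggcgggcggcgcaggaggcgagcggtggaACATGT
Sesn2, chr4:132510407-132510706, minus strand: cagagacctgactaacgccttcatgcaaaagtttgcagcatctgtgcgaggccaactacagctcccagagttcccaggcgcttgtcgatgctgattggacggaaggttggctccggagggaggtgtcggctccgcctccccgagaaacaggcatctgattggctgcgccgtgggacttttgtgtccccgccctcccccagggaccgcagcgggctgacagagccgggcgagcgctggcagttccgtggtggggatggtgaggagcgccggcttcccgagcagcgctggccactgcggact

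In the Cdkn1a window the matches to the element began 73 and 51 bases before the start; the half-sites of the second adjoin and each holds a hexamer. The other Cdkn1a start lies 2790 bases downstream, and its window held neither motif. In the Phlda3 window the hexamer began 44 bases after the start, as its last 6 bases.

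All values below are log2 signals of the gene's brightest probe relative to the array's 75th percentile, so a difference of 1 is a doubling of the signal, and levels of different probes cannot be set against each other. A change is KO minus WT, or later minus earlier stage, from limma's fit over all 18 arrays with a term for the array run. It is followed by its standard error (SE), and "called" means a Benjamini-Hochberg adjusted p under 0.05 over all 19298 genes. Of the 21 probes of these genes, 19 were kept, being well above background throughout at least 1 group of arrays; the 2 left out were probes of Trp63. The brightest probe of each gene was well above background on all 18 arrays. Between replicate arrays Pearson's r across probes was 0.969 to 0.992.

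The arrays lay on 7 slides and were scanned in 2 runs: run A held every array of E15.5 and, of E17.5, only replicate 3 of KO and of WT, and run B the rest. Slide 3 held KO replicate 3 of E15.5 with replicate 3 of KO and of WT at E17.5, and for Tnfrsf10b and Trp53 these 3 arrays stood apart from all others on the brightest probe. At E15.5 and P0 all WT arrays shared a slide without KO arrays, so slide and genotype cannot be told apart there. At E17.5 replicates 1 and 2 lay on slide 4 in WT and on slide 5 in KO, so the same holds within run B. Only the replicate 3 pair of E17.5 shared a slide, and the E17.5 fit with the slide as a fixed block rests on that pair. The signal of Elavl2 changed by -0.11 at E15.5 and fell by 0.87 at E17.5 and by 1.36 at P0 (SE 0.12 each, adjusted p = 0.00448 and 9.09e-06 for the falls). A dimmer Elavl2 probe read -3.18, -3.33 and -3.11 in KO against -2.90, -2.71 and -2.66 in WT at E15.5. On that probe every KO array was below every WT array at each stage. Which part was deleted is not stated, so Elavl2 is no check of the labels here.

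**Figure D1:**
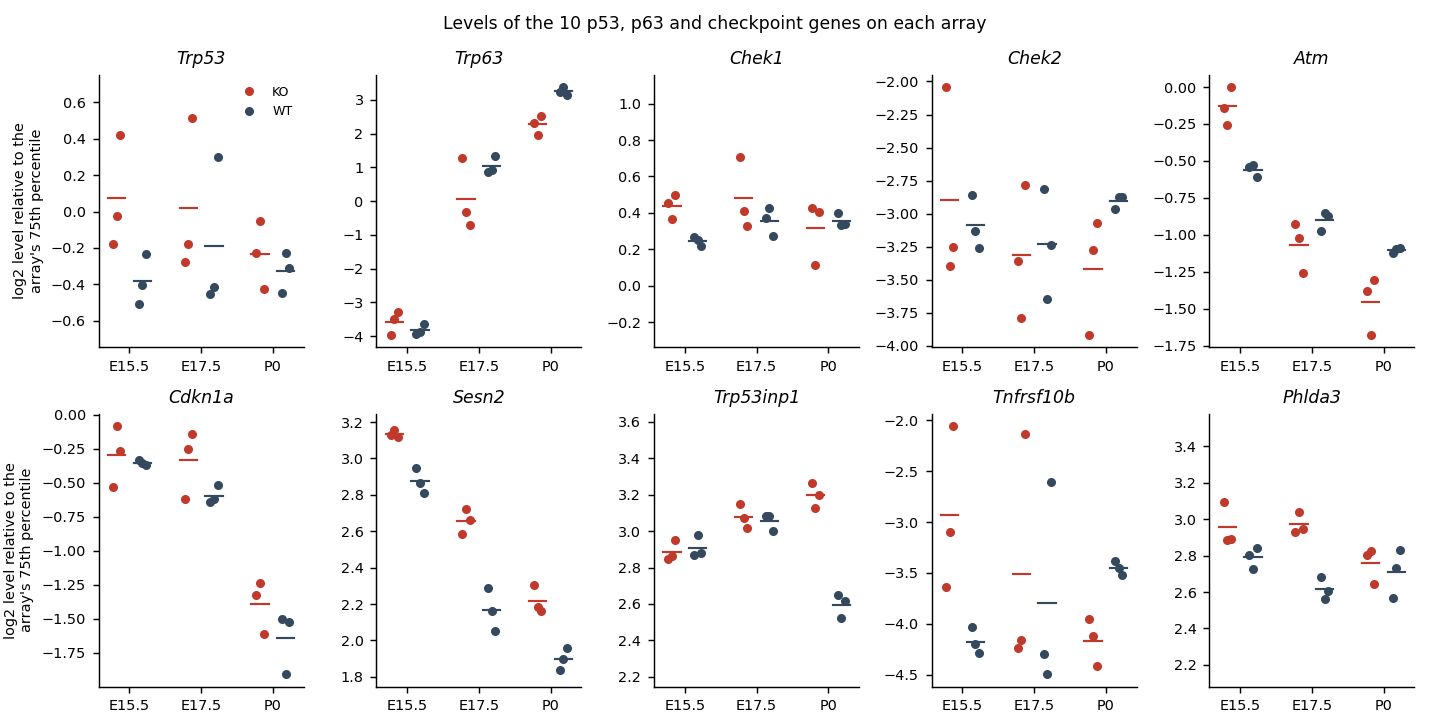
Log2 level of each of the 10 genes (vertical axis, relative to the array's 75th percentile; the scale differs between panels) at E15.5, E17.5 and P0, with KO left of WT. Points are arrays, short lines the means of 3 arrays: Trp63 climbs with stage in both genotypes, Sesn2 declines and lies higher in KO at each stage, and Trp53inp1 lies higher in KO at P0.

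Trp63, whose product guards the oocyte pool, had the largest change with stage of the 10 genes. It was 24.4-fold higher at E17.5 than at E15.5 in WT ovaries and 4.28-fold higher again at P0. Its brightest probe lies at chromosome 16, 25892012 to 25892071 (mm9), at base 4526 of the transcript. In KO ovaries it read -3.97, -3.48 and -3.28 at E15.5, 1.27, -0.33 and -0.72 at E17.5, and 2.32, 1.97 and 2.53 at P0. In WT ovaries it read -3.95, -3.87 and -3.65 at E15.5, 0.85, 0.91 and 1.34 at E17.5, and 3.23, 3.38 and 3.15 at P0. The stages did not overlap in either genotype. The genotypes overlapped at E15.5 and E17.5 and were separate at P0, where every KO array was below every WT array.

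The rise from E15.5 to E17.5 was 3.41 in KO (SE 0.46, adjusted p = 0.000238) and 4.61 in WT (SE 0.46, adjusted p = 3.22e-05). From E17.5 to P0 Trp63 rose by 2.07 in KO (SE 0.40, adjusted p = 0.00147) and by 2.10 in WT (SE 0.40, adjusted p = 0.00117). No change between genotypes was called. It was 0.24 at E15.5 (95% interval -0.57 to 1.06). At E17.5 it was -0.96 (-1.77 to -0.15, adjusted p = 0.16), and -0.98 at P0 (-1.79 to -0.17, adjusted p = 0.0591). At E17.5 the difference was -2.06 within run A, 1 array a genotype, and -0.41 within run B. Leaving out KO replicate 1, the highest KO array, made it -1.57 and called (adjusted p = 0.00353). At P0 the difference was called in 3 alternatives, the fit on P0 arrays only (adjusted p = 0.00852), normexp with quantile normalization (-1.10, adjusted p = 0.0137) and the fit without slide 3 (adjusted p = 0.0307). Slide 3 held no P0 array, so leaving it out kept the P0 difference and changed only its estimated spread. The order of the group means was P0 WT, P0 KO, E17.5 WT, E17.5 KO, E15.5 KO and E15.5 WT, in which the genotypes overlapped at E17.5 and at E15.5.

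The other Trp63 probes were dim. The kept one, at base 799 of the transcript, was well above background on all 3 arrays at P0 in WT and on 1 of 3 at P0 in KO, with levels of -5.11, -5.12 and -5.99 in KO and -4.51, -3.93 and -4.14 in WT. Its KO arrays were thus all below its WT arrays at P0 too, though the fitted change of -1.21 (SE 0.91) was not called. It is shown beside the second Trp53 probe, since these probes read the body of the 2 transcription factor transcripts. Each is 60 bases with at least 1 reading frame free of stop codons, and the files name no isoform for either, so TA and deltaN forms of p63 are not told apart.
Trp63, chr16:25865388-25866165 (mm9, spliced), plus strand: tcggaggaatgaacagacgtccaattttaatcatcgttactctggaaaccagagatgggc
Trp53, chr11:69403134-69403193 (mm9), plus strand: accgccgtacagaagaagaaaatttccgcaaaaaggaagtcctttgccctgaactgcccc

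Oocyte growth and zona genes are set beside Trp63 as oocyte markers. The summed signal of 18 of 18 listed oocyte growth and zona genes was 5.16 to 8.22 in KO and 4.42 to 5.85 in WT at E15.5, 23.7 to 46.4 in KO and 37.8 to 56.4 in WT at E17.5, and 49.5 to 65.3 in KO and 168 to 189.2 in WT at P0. Of that list 0 rose and 15 fell in KO at P0, against 34.4% of all genes called in either direction. At P0 Bmp15, Oosp1 and Astl were not well above background on any KO array. At E15.5 that held for 4 of the genes in KO and for 7 in WT. The median change of the list between genotypes at P0 was -3.88, against -0.98 for Trp63, and its median rise from E17.5 to P0 was 1.80 in KO and 4.31 in WT, against 2.07 and 2.10 for Trp63. The effect on Trp63 differed between these stages by -0.02 (SE 0.53, adjusted p = 0.982). Pan-germ cell markers, 11 of 13 on the array, had sums of 123 to 149.3 in KO and 114.3 to 122.3 in WT at P0, where 2 of them rose and 1 fell. At E17.5, KO replicate 1 had both the highest Trp63 and the highest oocyte sum of its group, and WT replicate 3 likewise. The part of the oocyte genes in the Trp63 values was not tested. In whole ovaries, fewer cells of a type and less RNA per cell cannot be told apart. The 3 genes whose levels were most like Trp63 over the 18 arrays were Phactr3 (Pearson's r = 0.997), Cacng5 (0.994) and Kdm1b (0.993), where the points share 6 groups and their stages.

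**Figure D2:**
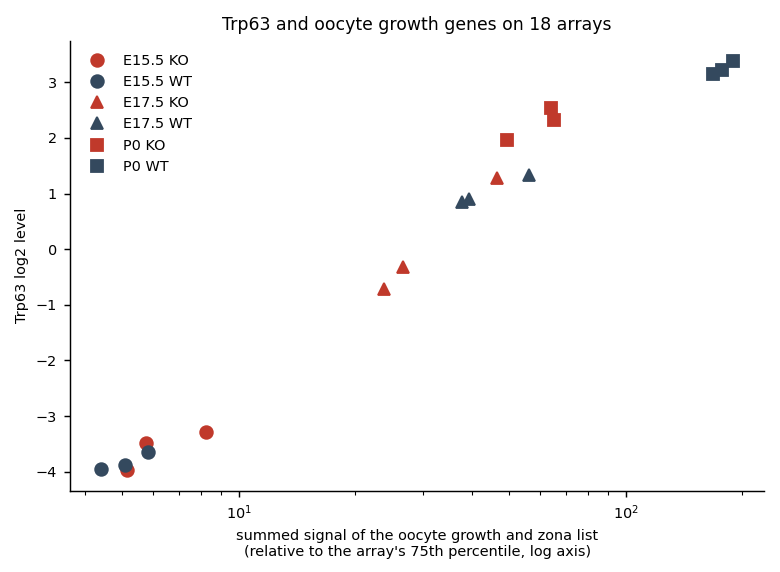
Log2 level of Trp63 (vertical axis) against the summed signal of 18 oocyte growth and zona genes (horizontal log axis) on each of 18 arrays, by stage (shape) and genotype (colour). The E15.5 arrays sit at the lower left, P0 WT at the upper right, and the P0 KO arrays lie with oocyte sums of 49.5 to 65.3, near the E17.5 arrays.

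Trp53, the gene of p53, did not differ between genotypes by a called amount at any stage, and its probes disagreed. Its brightest probe (chromosome 11, 69393959 to 69394017, transcript base 98) read -0.18, -0.03 and 0.42 in KO against -0.51, -0.41 and -0.23 in WT at E15.5. The E17.5 levels were -0.28, -0.18 and 0.51 in KO against -0.45, -0.41 and 0.30 in WT. At P0 it read -0.23, -0.05 and -0.42 in KO against -0.45, -0.23 and -0.31 in WT. The KO arrays were all above the WT arrays at E15.5 only, and the highest value of each group that had an array on slide 3 was the one on slide 3.

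On this probe the E15.5 change was 0.45 (SE 0.14, adjusted p = 0.129), the E17.5 change 0.21 and the P0 change 0.09 (SE 0.14 each). The second probe (transcript base 989, printed on 10 spots) gave -0.05, -0.01 and -0.25 in that order (SE 0.12 each), with levels between -1.19 and -0.61 on all arrays and no high value on slide 3. A fitted rise of 0.69 from E15.5 to E17.5 in WT was called for the brightest probe (SE 0.17, adjusted p = 0.0112). That call came with the run term, which set run B 0.74 below run A for this probe (SE 0.15), an estimate that rests on E17.5, where run A is slide 3. With no run term it was 0.19 (adjusted p = 0.576), without E17.5 WT replicate 3 it was 0.69 but not called (adjusted p = 0.141), and the arrays of these stages overlapped. The call was also lost with the mean of the probes. On the second probe this step was -0.20 in WT and -0.16 in KO (SE 0.14 each), neither called, so the probes differed in sign. In KO, without E15.5 replicate 3, the array on slide 3, the same step was 0.61 and called (adjusted p = 0.00565).

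Atm, the break-sensing kinase, fell between the fetal stages in both genotypes and was the member called lower in KO at P0. Its brightest probe (chromosome 9, 53245871 to 53245930, transcript base 11260) read -0.14, -0.25 and 0.00 in KO against -0.54, -0.53 and -0.61 in WT at E15.5. At E17.5 it read -0.93, -1.02 and -1.26 in KO against -0.98, -0.85 and -0.87 in WT. At P0 it read -1.38, -1.68 and -1.31 in KO against -1.13, -1.09 and -1.09 in WT. KO arrays were thus all above WT at E15.5, mixed with them at E17.5 and all below at P0.

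Atm fell by 0.35 in KO at P0 (SE 0.10, adjusted p = 0.0173). Its changes at the fetal stages were not called, 0.43 at E15.5 (SE 0.10, adjusted p = 0.0572) and -0.17 at E17.5 (adjusted p = 0.349). From E15.5 to E17.5 Atm fell by 1.02 in KO (SE 0.12, adjusted p = 0.00011) and by 0.42 in WT (SE 0.12, adjusted p = 0.0254). At the next step, to P0, it fell by 0.43 in KO (SE 0.11, adjusted p = 0.00792) and changed by -0.24 in WT (adjusted p = 0.0861). The first WT fall was lost without E15.5 WT replicate 1 or 2 or E17.5 WT replicate 3 (adjusted p = 0.058 to 0.0616), and the second KO fall was -0.00 with the slide as a fixed block and -0.25 (adjusted p = 0.107) with the mean of the probes. The test of the difference between the P0 and E15.5 effects, added after the opposite signs were seen, gave -0.78 (SE 0.14, adjusted p = 0.00319), and that test was called for 19.9% of all genes. A second Atm probe (10 spots, transcript base 8518) gave 0.26, -0.31 and -0.36 (SE 0.15 each) at the 3 stages, the same signs, and from E17.5 to P0 in KO it gave only -0.08 (SE 0.15). The P0 call was lost without KO replicate 2, the lowest array (-0.24, adjusted p = 0.0663), with the replicate block (adjusted p = 0.0507), with only the P0 arrays (adjusted p = 0.0686) and with scaling by the array median (-0.21), which moved the median of all genes at P0 by 0.14.

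Beside these values, the meiotic prophase markers, 17 of 17 measured, summed to 284.7 to 295.4 in KO and 220.7 to 238.9 in WT at E15.5, 116.4 to 151.9 in KO and 129.5 to 133.3 in WT at E17.5, and 139.6 to 172.3 in KO and 104 to 117.7 in WT at P0. The sums were higher in KO at E15.5, as Atm was, and at P0, where Atm was lower. Their part in the Atm changes was not tested.

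The checkpoint kinase genes Chek1 and Chek2 showed no called change between genotypes or between stages. Chek1 (chromosome 9, 36517425 to 36517484, transcript base 1979) ranged from 0.33 to 0.71 in KO and from 0.22 to 0.43 in WT at the fetal stages, and from 0.11 to 0.43 in KO and from 0.33 to 0.40 in WT at P0. At E15.5 its KO arrays (0.45, 0.37 and 0.50) were all above its WT arrays (0.27, 0.25 and 0.22), with a change of 0.19 (95% interval -0.00 to 0.39). At E17.5 the change was 0.12 (-0.07 to 0.32) and at P0 -0.04 (-0.24 to 0.15). From E17.5 to P0 in KO it changed by -0.23 (adjusted p = 0.0827), and by -0.32 without E17.5 KO replicate 2, which was called (adjusted p = 0.0489). The second Chek1 probe gave 0.18, 0.02 and -0.14 (SE 0.10 each).

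Chek2 (chromosome 5, 111294547 to 111294606, transcript base 1065) spread widely within groups, from -3.92 to -2.04 over the KO arrays and from -3.65 to -2.81 over the WT arrays. Its change was 0.19 at E15.5 (95% interval -0.56 to 0.93), -0.08 at E17.5 (-0.82 to 0.67) and -0.51 at P0 (-1.26 to 0.23). At P0 its KO arrays (-3.92, -3.27 and -3.07) were all below the WT arrays (-2.96, -2.88 and -2.88), which the test did not call (adjusted p = 0.261). A second, dimmer probe at base 671 gave 0.17, -0.09 and -0.26 (SE 0.22 each). Each of the 3 intervals holds a change of 1.5-fold.

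Cdkn1a, the p21 gene, fell around birth in both genotypes. Its probe (chromosome 17, 29237377 to 29237436, 10 spots) read -0.53, -0.09 and -0.27 in KO against -0.33, -0.36 and -0.37 in WT at E15.5. The E17.5 levels were -0.62, -0.25 and -0.14 in KO against -0.65, -0.62 and -0.52 in WT. At P0 it read -1.32, -1.24 and -1.61 in KO against -1.50, -1.91 and -1.52 in WT. Every P0 array lay below every earlier array, and the genotypes overlapped at each stage.

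From E17.5 to P0 it fell by 0.99 in KO (SE 0.15, adjusted p = 0.000343) and by 0.98 in WT (SE 0.15, adjusted p = 0.000301), and the difference between these falls was -0.01 (SE 0.20, adjusted p = 0.99). The change between genotypes was 0.06 at E15.5 (95% interval -0.25 to 0.37), 0.26 at E17.5 (-0.05 to 0.57) and 0.25 at P0 (-0.06 to 0.56). The genes most like Cdkn1a over 18 arrays were Brwd1 (r = 0.981), Cibar2 (0.98) and Necab3 (0.979).

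Sesn2 was the member whose KO arrays all lay above its WT arrays at each of the 3 stages. Its brightest probe (chromosome 4, 132047974 to 132048033) read 3.13, 3.15 and 3.12 in KO against 2.95, 2.87 and 2.81 in WT at E15.5. The E17.5 levels were 2.59, 2.72 and 2.66 in KO against 2.29, 2.16 and 2.05 in WT. At P0 it read 2.30, 2.18 and 2.16 in KO against 1.84, 1.90 and 1.96 in WT. The genotypes did not overlap at any stage, and the level fell from stage to stage in both.

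Sesn2 rose in KO by 0.49 at E17.5 (SE 0.07, adjusted p = 0.00448) and by 0.32 at P0 (SE 0.07, adjusted p = 0.00376). The E15.5 change of 0.26 was not called (SE 0.07, adjusted p = 0.0839). At E17.5 same-numbered arrays, which shared a run, deviated together, and with the replicate number as a block the call was lost (adjusted p = 0.0508). Within run A the E17.5 difference was 0.61 and within run B 0.43, as it was without slide 3 (adjusted p = 0.0468). The P0 call held in all 19 alternatives (0.20 to 0.46). A second probe, at base 2459, gave 0.17, 0.23 and 0.39 (SE 0.09 each), the last with an adjusted p of 0.00631 over all kept probes.

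From E15.5 to E17.5 Sesn2 fell by 0.53 in KO (SE 0.08, adjusted p = 0.000785) and by 0.76 in WT (SE 0.08, adjusted p = 7.87e-05). At the next step it fell by 0.47 in KO (adjusted p = 0.000387) and by 0.30 in WT (adjusted p = 0.00605), which without E17.5 WT replicate 1 was -0.23 (adjusted p = 0.0508). On the second probe the first step was 0.07 in KO and 0.01 in WT (SE 0.11 each), so the probes disagreed there. With the mean of both probes the first KO fall was not called (-0.23, adjusted p = 0.0683). From E17.5 to P0 the second probe gave only -0.02 in KO and -0.19 in WT (SE 0.10 each), neither called over all kept probes. Sesn2 lies on the chromosome of Elavl2, 41.1 Mb away in mm9.

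Phlda3, whose product blocks AKT at the membrane, was called higher in KO at E17.5, a call that most alternatives lost. Its probe (chromosome 1, 137665642 to 137665701, transcript base 1397) read 3.10, 2.89 and 2.89 in KO against 2.80, 2.73 and 2.84 in WT at E15.5. At E17.5 it read 2.93, 3.04 and 2.95 in KO against 2.68, 2.56 and 2.61 in WT, and at P0 2.80, 2.83 and 2.65 in KO against 2.57, 2.73 and 2.83 in WT. KO arrays were all above WT arrays at the fetal stages and mixed with them at P0.

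Phlda3 rose by 0.35 in KO at E17.5 (SE 0.09, adjusted p = 0.0352), and its changes at E15.5 (0.17) and P0 (0.05) were not called (SE 0.09 each). Within run A the E17.5 value was 0.34, within run B 0.36, and between 0.29 and 0.39 over 21 alternatives, of which 6 kept the call. With the replicate block the adjusted p was 0.116. The call was lost without any 1 of the 6 arrays of that stage other than KO replicate 1 (0.32 to 0.39, adjusted p = 0.0752 to 0.162). Beside the E17.5 values, KO replicate 3 had the highest red cell sum (792.7, against 427.7 and 492.1 on the other KO arrays and 309 to 425.9 in WT, 12 of 14 markers measured) and macrophage sum (52.1, against 13 and 14.7 on the other KO arrays and 13.6 to 21.4 in WT, 10 of 10 markers). Without that array the change was 0.43 for Sesn2 (adjusted p = 0.0411) and 0.36 for Phlda3 (adjusted p = 0.131).

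Trp53inp1 was the member whose change between genotypes differed between E17.5 and P0 by the test of that difference. Its brightest probe (chromosome 4, 11101174 to 11101233, transcript base 5041) read 2.84, 2.86 and 2.95 in KO against 2.87, 2.98 and 2.88 in WT at E15.5. The E17.5 levels were 3.15, 3.07 and 3.02 in KO against 3.08, 3.08 and 3.00 in WT. At P0 it read 3.27, 3.13 and 3.20 in KO against 2.65, 2.52 and 2.61 in WT. The genotypes overlapped at the fetal stages, and at P0 the lowest KO array was well above the highest WT array.

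Trp53inp1 rose 1.52-fold in KO at P0, by 0.60 (SE 0.06, adjusted p = 1.89e-05). Its fetal changes were -0.02 and 0.02 (SE 0.06 each). From E17.5 to P0 it changed by 0.09 in KO (SE 0.06, adjusted p = 0.292) and fell by 0.49 in WT (SE 0.06, adjusted p = 9.5e-05). The difference of these, 0.58 (SE 0.08, adjusted p = 0.00202), was called in all 24 alternatives, and the P0 change in all 19. A second probe (base 2047) averaged -0.11 in KO and -0.48 in WT at P0, a change of 0.37 (SE 0.15) that was not called over all kept probes (adjusted p = 0.0854). Trp53inp1 also lies on chromosome 4, 79.8 Mb from Elavl2.

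Markers of several somatic cell types summed higher in KO on every array at P0, beside the rises of Sesn2 and Trp53inp1. The 12 pregranulosa markers summed to 133.3 to 150.4 in KO and 106.7 to 120.9 in WT, 8 surface epithelium markers to 71.6 to 80.2 in KO and 51.5 to 62.9 in WT, and 10 endothelial markers to 14.9 to 16.9 in KO and 11.1 to 13.4 in WT. No listed marker of these 3 types was below background. The 6 mesonephros markers, a tissue beside the ovary, summed to 3.15 to 3.70 in KO and 2.09 to 2.74 in WT. By gene, though, 1 of these 6 rose, 1 fell and 4 were not called, with a median change of -0.04. Of the pregranulosa, surface epithelium and endothelial markers 6, 5 and 7 rose in that order and 0 fell, against 34.4% of all genes called. Sums of other lists overlapped between genotypes: 258.3 to 326.4 in KO and 263.8 to 297.9 in WT for 10 stroma markers, 2.44 to 2.75 in KO and 2.59 to 2.97 in WT for 7 Sertoli markers, and 3.06 to 7.92 in KO and 6.16 to 10.9 in WT for 5 of 7 steroidogenic markers. Macrophage sums (9.78 to 11.96 in KO, 6.03 to 14.9 in WT) and red cell sums (142.9 to 165.7 in KO, 99.5 to 309.7 in WT) overlapped too. The part of these cell types in the changes of Sesn2 and Trp53inp1 was not tested.

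Tnfrsf10b, the death receptor gene, read higher in KO at E15.5 and lower at P0. Its brightest probe (chromosome 14, 70177538 to 70177597, transcript base 844) read -3.64, -3.10 and -2.06 in KO against -4.04, -4.20 and -4.29 in WT at E15.5. The E17.5 levels were -4.23, -4.16 and -2.13 in KO against -4.29, -4.50 and -2.61 in WT. At P0 it read -3.96, -4.12 and -4.42 in KO against -3.39, -3.45 and -3.52 in WT. The 3 arrays of slide 3 gave the 3 highest values of all 18, in either genotype.

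The change at E15.5 was 1.24 (SE 0.28, adjusted p = 0.0467), and without slide 3, and so without KO replicate 3, it was 0.81 (SE 0.16, adjusted p = 0.0426). The other kept probes gave 0.01 (base 749, SE 0.30) and 0.46 (base 2149, SE 0.29) at E15.5, neither called. On both, the slide 3 array was the lowest KO array at E15.5, but at E17.5 slide 3 arrays were again high: on the base 749 probe they read -3.67 in KO and -4.55 in WT, the highest of their groups, and on the base 2149 probe the WT one read -4.57, the highest of its group. With the mean of the 3 probes the change was 0.57 (SE 0.13, adjusted p = 0.0538). The call was kept in 9 of 19 alternatives and was lost without any 1 WT array or without KO replicate 2 (1.19 to 1.33, adjusted p = 0.0822 to 0.163). At P0 the change was -0.71 (95% interval -1.32 to -0.10, adjusted p = 0.0661), and the other probes were lower in KO as well. The base 749 probe gave -0.68 (SE 0.30) with 1 of 3 KO arrays well above background, and the base 2149 probe was well above background on 3 of 3 WT arrays and 0 of 3 KO arrays. The P0 change was called with the mean of the probes (-0.72, adjusted p = 0.00136), with only the P0 arrays (adjusted p = 0.013) and without slide 3 (adjusted p = 0.00335). The last of these left out no P0 array, so it kept the P0 difference and changed only its estimated spread.

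The difference between the P0 and E15.5 effects of Tnfrsf10b, added after they were seen, was -1.96 (SE 0.40, adjusted p = 0.00554). At E17.5 the change was 0.29 (SE 0.28), with 0.48 within run A and 0.20 within run B. Its called rises in WT, by 1.66 between E15.5 and E17.5 (adjusted p = 0.00445) and by 0.99 to P0 (adjusted p = 0.0175), rest on the run term, which was -1.93 (SE 0.30) for this probe. With no run term they were 0.38 (adjusted p = 0.663) and 0.35 (adjusted p = 0.657), and the arrays of neighbouring stages overlapped. The calls were also lost without E17.5 WT replicate 3 (1.85, adjusted p = 0.0682) and replicate 2 (0.95, adjusted p = 0.0669), each in turn. In KO, without E15.5 replicate 3, the first step was 1.14 and called (adjusted p = 0.00111).

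**Figure D3:**
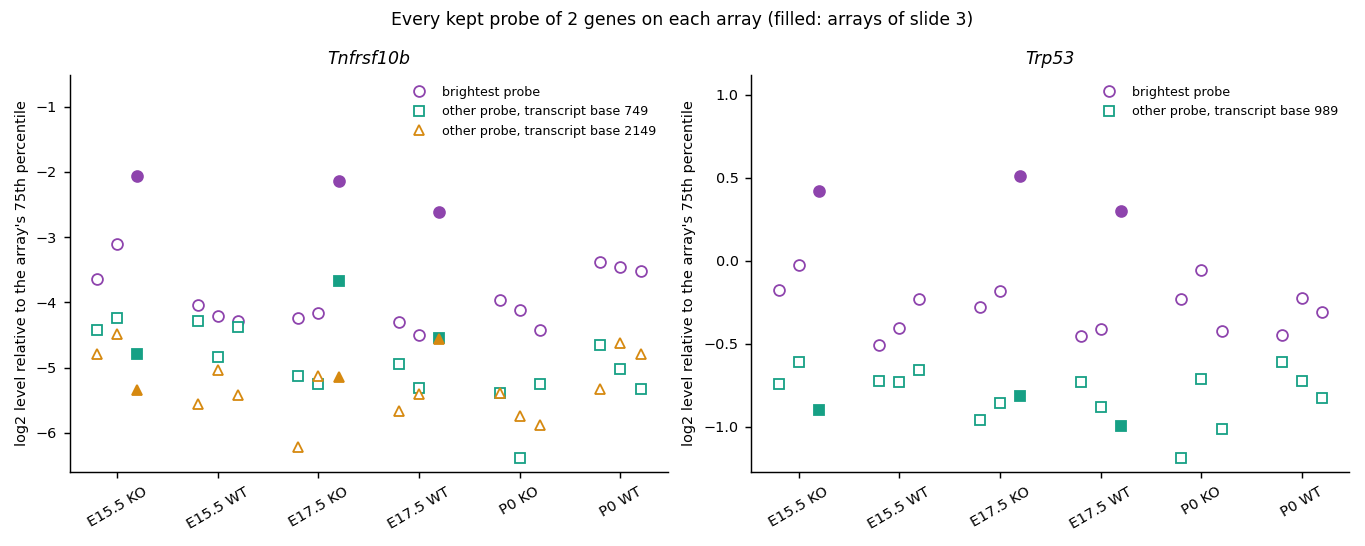
Log2 level (vertical axis) of every kept probe of Tnfrsf10b and Trp53 on each array, by group along the horizontal axis with KO left of WT; filled symbols are the 3 arrays of slide 3. The brightest probe of each gene is high on all 3 filled arrays, while the other Trp53 probe is not, and all Tnfrsf10b probes average lower in KO than in WT at P0.

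Counted together, 1 of the 10 genes was called between genotypes at E15.5 (Tnfrsf10b, higher), against 1.62% of all genes in either direction and 0.969% higher. At E17.5 there were 2 (Sesn2 and Phlda3, higher), against 4.19% in either direction and 1.33% higher, and with the replicate block limma called 0 of the 10. At P0 there were 3 (Trp53inp1 and Sesn2 higher, Atm lower), against 34.4%, a share near that of all genes. Groups did not overlap for 6 genes at E15.5, all with KO higher, against 23.8% of all genes and 13% with KO higher. They did not overlap for 2 genes at E17.5, both with KO higher, against 19.1% and 10.9% with KO higher, and for 6 at P0, 2 with KO higher and 4 with KO lower, against 48.3%. The median change of the 10 genes was 0.22, 0.17 and 0.00 at the 3 stages, against 0.01, 0.05 and 0.00 over all genes.

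Between stages, 3 of the 10 genes were called in KO (Trp63 higher, Atm and Sesn2 lower) and 5 in WT (these and Trp53 and Tnfrsf10b, both higher) from E15.5 to E17.5, against 21.8% and 26.4% of all genes. With no run term the WT count was 3. From E17.5 to P0, 4 were called in KO (Trp63 higher, while Atm, Cdkn1a and Sesn2 were lower), against 37.2%. In WT 5 were called (Trp63 and Tnfrsf10b higher, while Cdkn1a, Sesn2 and Trp53inp1 were lower), against 43.3%. The effect of genotype differed between E17.5 and P0 for 1 gene, Trp53inp1, against 10.4% of all genes (4.28% upwards), and between E15.5 and E17.5 for 0, against 0.306%. At an unadjusted p under 0.05 the latter test had 2526 genes.

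**Figure D4:**
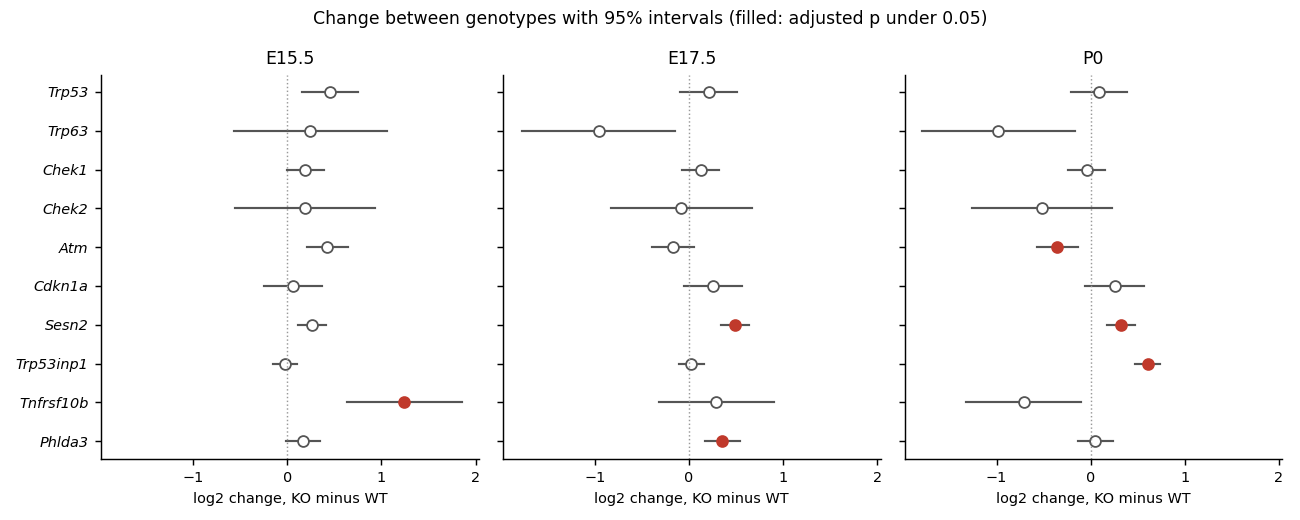
Log2 change between genotypes (horizontal axis, KO minus WT) of each of the 10 genes at E15.5, E17.5 and P0, with 95% intervals from limma's fit; filled points have an adjusted p under 0.05. The interval of Sesn2 lies to the right of 0 in each panel, that of Trp53inp1 at P0 only, and Trp63 lies left of 0 at E17.5 and P0 with wide intervals.

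The rest of the pathway was described with 3 lists, chosen with earlier results of these data known. Of 39 further p53 target genes, 38 were measured well enough to test. At E15.5 limma called 0 of them between genotypes, against 1.62% of all genes. In that test 8 of them had an unadjusted p under 0.05, as had 2831 of all 19298 genes. At E17.5, 2 rose, 2 fell and 34 were not called, where 4.19% of all genes were called. The median change was 0.08, against 0.05 over all genes. The risers were Pmaip1, which encodes the BH3-only protein NOXA (0.76, SE 0.14, adjusted p = 0.012), and Gdf15, a stress cytokine of the TGF-beta family (0.50, adjusted p = 0.0442). Tigar, which encodes a bisphosphatase that curbs glycolysis, fell by 0.87 (SE 0.17, adjusted p = 0.0142), and Fbxw7, of a ubiquitin ligase, by 0.40 (adjusted p = 0.0278).

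At P0, 8 of the 38 targets rose, 7 fell and 23 were not called, where 34.4% of all genes were called, with a median of 0.01 against 0.00 over all genes. A share this near that of all genes is no result about the targets as a list. Pmaip1 read 1.13, 0.66 and 1.01 in KO against -0.53, -0.51 and -0.55 in WT, a rise of 1.46 (SE 0.14, adjusted p = 1.12e-05) with no overlap. Ppm1d, whose phosphatase product WIP1 switches p53 signalling off, rose by 0.81 (SE 0.09, adjusted p = 4.94e-05). Ei24, an endoplasmic reticulum protein gene, rose by 0.50 and the sestrin gene Sesn1 by 0.41, the latter on all 3 of its probes (0.41 to 0.56). Gdf15 went the other way than at E17.5 and fell by 0.93 (SE 0.13, adjusted p = 0.000159), with 2 of 3 KO arrays well above background. Tigar fell by 0.80 (1.10 on its second probe). The nucleotide excision repair genes Ddb2 and Xpc fell by 0.42 and 0.33, the kinase gene Plk3 by 0.55, the desmosome gene Perp by 0.71 and the apoptosome gene Apaf1 by 0.43.

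Among 20 family members and regulators, 1 rose at E15.5 and 0 passed limma's test at E17.5. At E17.5 5 of them had an unadjusted p under 0.05, as had 4242 of all 19298 genes. At P0 5 rose and 2 fell, against 34.4% of all genes called at P0. The all-gene shares at the fetal stages were 1.62% and 4.19%. Cdkn2a, which encodes p16 and the p53 activator ARF, read -2.37, -1.99 and -1.95 in KO against -4.60, -5.65 and -3.91 in WT at E15.5, a rise of 2.61 (SE 0.33, adjusted p = 0.00603), and it rose by 1.63 at P0. It lies 2 Mb from Elavl2 on chromosome 4. Ppm1d, already named, rose at P0, as did the kinase genes Csnk1a1 (0.26) and Abl1 (0.28), whose other probes did not all follow. Mdm4, an inhibitor of p53, fell by 0.49 at P0 (SE 0.13, adjusted p = 0.0124) and its 5 probes ranged from -0.75 to -0.35. The SUMO ligase gene Pias1 fell by 0.20. Mdm2, the main ubiquitin ligase for p53, is named although it was not called: it changed by -0.01, -0.12 and -0.19 (SE 0.10 each) at E15.5, E17.5 and P0.

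Of 30 damage sensors and checkpoint partners, 29 were tested, beside all-gene shares called of 1.62% at E15.5 and 4.19% at E17.5. At E15.5 1 rose, Mre11a of the MRN break-sensing complex (0.34, adjusted p = 0.0347), but another of its probes gave -0.47. At E17.5 1 rose and 1 fell, and these were the partners of the fork protection complex: Tipin rose by 0.56 (SE 0.09, adjusted p = 0.00856) and Timeless fell by 0.51 (SE 0.12, adjusted p = 0.0288; -0.06 on its second probe). At P0 6 rose, 8 fell and 15 were not called, against 34.4% of all genes called. Hus1b, a paralogue of the clamp subunit gene Hus1, read -1.67, -2.23 and -2.10 in KO against -3.58, -4.25 and -3.66 in WT, a rise of 1.83 (SE 0.17, adjusted p = 1.12e-05). Topbp1, the activator of ATR, rose by 0.58, Tipin by 0.63, the clamp loader gene Rad17 by 0.40, the meiotic ATPase gene Trip13 by 0.37 and Rad9b by 0.29. Timeless fell by 0.89 (SE 0.12, adjusted p = 0.000128), on both probes (-0.89 and -0.38). From E15.5 to E17.5, 0 of the 29 rose, 11 fell and 18 were not called in KO, against 21.8% of all genes called, and 1 rose, 9 fell and 19 were not called in WT, against 26.4%. Of 17 meiotic prophase markers, 14 fell at that step in each genotype, and their part in these counts was not tested.

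Beside these, 10 of 17 meiotic prophase markers rose and 1 fell in KO at P0, against 34.4% of all genes called. Of 16 cell division markers 5 fell and 0 rose, a share called near that of all genes. The cell division sums were 126.6 to 141.2 in KO and 150.4 to 159.6 in WT. Their part in the changes of Hus1b, Topbp1, Tipin and Timeless was not tested.

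**Figure D5:**
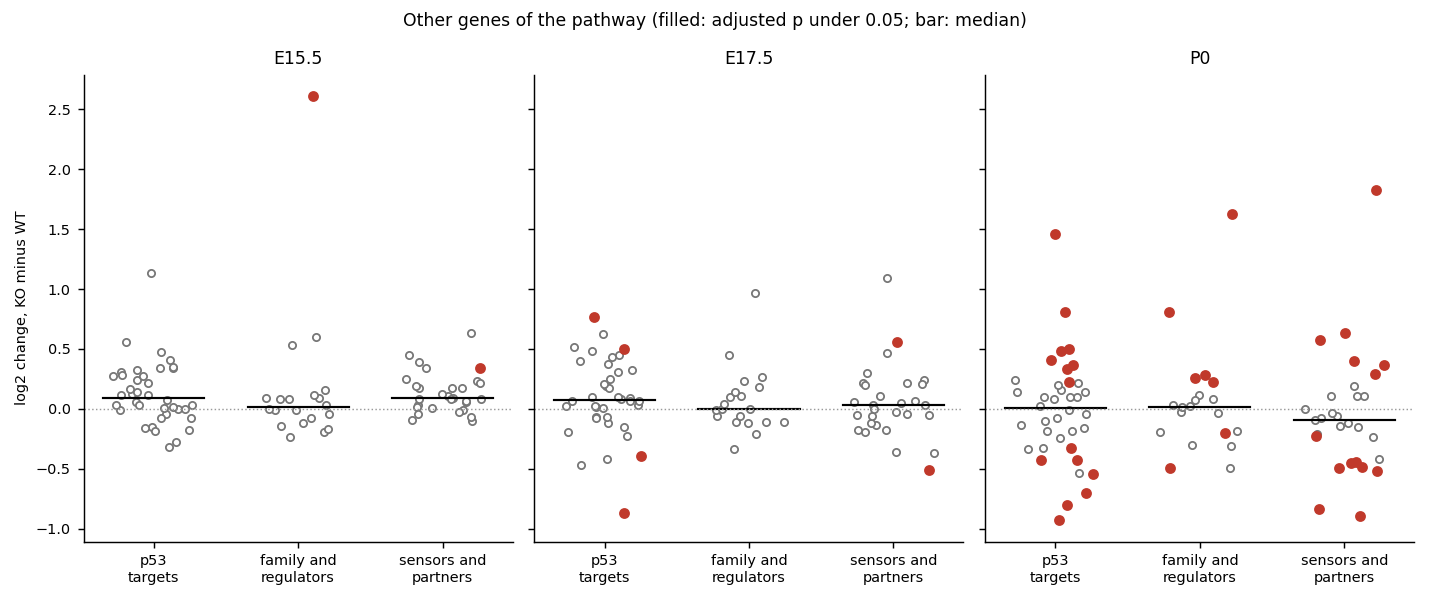
Log2 change between genotypes (vertical axis, KO minus WT) of each tested gene of the 3 lists at E15.5, E17.5 and P0. Filled points have an adjusted p under 0.05 and bars are list medians: few points are filled at the fetal stages, and at P0 filled points lie on both sides of 0 in each list.

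Over the 18 arrays, the genes most like the other members were Madd (r = 0.974), Sun1 (0.972) and Rpl36a (0.97) for Sesn2, Ghrl (0.976) first for Tnfrsf10b, Padi1 (0.972) first for Trp53 and Rpe (0.746) first for Chek1. These correlations describe arrays that share stages, runs and slides.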

How the data were processed

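RNA of 18 ovary samples was labelled with Cy3 and hybridised to Agilent mouse arrays, per the labels' protocols. The deposited scanner files hold an intensity per spot after background subtraction, which the authors obtained with Feature Extraction of Agilent (10.7.3.1 per the file headers, 9.5 per the submitters' processing notes), and flags for background and outliers (other values, deposited by the authors). The deposited series matrix holds log2 values, which equalled the scanner log2 intensity plus a constant per array (within 0.05 for at least 99.8% of probes); it was an alternative. Build mm9 is that of the file coordinates.

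Control spots and outlier spots (51 to 109 per array) were dropped, and saturation occurred at 0 spots. Between 62.5% and 75.1% of probes per array were well above background. From each log2 intensity the 75th percentile of its array was subtracted. Of 41174 probes, 29201 were kept (well above background on all 3 arrays of a group), and the brightest stood for a gene. For naming, 28197 probes were matched to RefSeq genes by accession and 12956 kept the name in the file. limma 3.58.1 in R 4.3.3 fitted the 6 groups and the run (lmFit, eBayes, 11 residual degrees of freedom); 3 arrays per group limit the precision.

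The members, lists and tests were chosen with earlier results of these data known. Text names all members, up to 5 called genes per list and genotype comparison with the smallest adjusted p, and called genes moving against most of their list. Same-numbered arrays of KO and WT were taken as paired where each correlation of their deviations was over 0.1: they were 0.178, 0.205 and -0.117 for E15.5, 0.121, 0.398 and 0.451 for E17.5, and 0.149, 0.101 and 0.0806 for P0. So only E17.5 counted as paired. The deviations were taken without the run term, and at E17.5 same-numbered arrays of KO and WT shared a run. These correlations therefore cannot tell a pairing from the run there.

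Tested on data simulated from these arrays (19249 genes, 67 changed 1.5-fold), limma recovered 52.2% of those changes for E15.5, 50.7% for E17.5 and 56.7% for P0. Alternatives were normexp (offset 50) with quantile normalization, quantile normalization, array-median scaling, the series matrix, other filters, no run term, the mean of probes, trended and robust moderation, slide and replicate blocks, fewer arrays and dropping each array in turn. Dropping slide 3, and the test of the P0 effect against the E15.5 effect, were added after seeing the data. Marker sums add linear signals, each divided by the 75th percentile of its array. Figures used matplotlib in Python.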

Additional observations from a re-analysis of the deposited data

Results flagged for a closer look

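The effect of the knockout differed between stages for 3 of the 10 genes by a test of the difference itself. For Trp53inp1 the effect at P0 exceeded that at E17.5 by 0.58 (SE 0.08, adjusted p = 0.00202 with limma) and that at E15.5 by 0.63 (SE 0.08, adjusted p = 0.000555), with all 3 KO arrays above all 3 WT arrays at P0. The tests were called for 10.4% of all genes against E17.5 and 19.9% against E15.5. For Atm the effect at P0 minus that at E15.5 was -0.78 (SE 0.14, adjusted p = 0.00319), with 3 of 3 KO arrays above WT at E15.5 and 3 of 3 below at P0. For Tnfrsf10b it was -1.96 (SE 0.40, adjusted p = 0.00554), with the same order of arrays, on a probe that read high on slide 3. Its base 749 probe changed by 0.01 at E15.5 and -0.68 at P0, and its base 2149 probe by 0.46 and -0.76, none of them called. The tests against E15.5 were added after the values were seen. No group had enough samples for a search for single outlying arrays.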

How the results depend on the processing

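The counts of genes called between genotypes were small and moved with single choices, more so at the fetal stages. At E15.5 the 1 called gene became 0 with no filter, with no run term, with the mean of a gene's probes, with the slide as a random block, with the replicate block and with only the E15.5 arrays. It became 2, Atm joining, with normexp and quantile normalization and with trended and robust moderation. Leaving out single arrays gave 0 to 1, with 0 without any WT array or without KO replicate 2. At E17.5 the 2 called genes became 1 (Sesn2) with normexp, array-median scaling, no filter, no run term, the slide as a random or a fixed block, and without slide 3. They became 0 with the replicate block, within run B and with only the E17.5 arrays, and leaving out single arrays gave 1 to 3. At P0 the count of 3 was 5 without slide 3 and 2 to 4 in every other alternative run. Slide 3 held no P0 array, so the count of 5 came from a changed spread and not from changed P0 differences. The replicate block at E15.5 and P0, where same-numbered arrays did not all deviate together, moved Atm at P0 to an adjusted p of 0.0507 and left 2 genes called; the stage comparisons cannot be estimated under it. From E15.5 to E17.5 the WT count of 5 was 3 with no run term and 2 to 5 on leaving out single arrays (2 without E17.5 WT replicate 3), and the KO count of 3 was 3 to 5 (5 without E15.5 KO replicate 3), and 2, Sesn2 being lost, with the mean of probes and the slide as a fixed block. The count for the difference between E17.5 and P0 effects, 1, was 2 (Tnfrsf10b joining) with the mean of probes and with only those stages. That between E15.5 and E17.5, 0, was 0 to 1, with Trp63 called without E17.5 KO replicate 1. Over all genes, the counts were 312 at E15.5 (0 to 472), 808 at E17.5 (1 to 1189) and 6648 at P0 (4796 to 7632). No called change of a member turned its direction in these alternatives, none of which used a dimmer probe alone. On the second probes the step from E15.5 to E17.5 had the opposite sign for Trp53 in WT (-0.20, SE 0.14). The same held for Sesn2 in WT (0.01) and in KO (0.07, SE 0.11 each). The cause of the moves between alternatives and between probes was not tested. Array-median scaling moved the median of all genes by up to 0.21 between stages.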
